A study of Mus musculus with 8 samples.

Results

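A set of 9 genes for protease inhibitors was examined in immature myeloid cells (IMCs), and all 9 were found among the 24062 genes of the count table. The WAP-domain genes were Wfdc17, Wfdc18, Wfdc21 and Slpi, the Kunitz-domain genes were Spint1 and Spint2, and the cystatin-family genes were Stfa1, Cst3 and Cst7. The set was chosen by symbol because Wfdc17, Wfdc18 and Spint1 had stood in a list of genes that differed between PARP2CKO and PARP2 WT in these same libraries. Every value of that comparison is therefore given for these 9 genes as a description, without a test. The standard errors beside those fold changes come from the same fit, and no support is read from them. Wfdc21 stands in the table under its older symbol 1100001G20Rik, and the other 8 stand under their listed symbols.

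The study compared IMCs that lack PARP1 or PARP2, enzymes that add ADP-ribose to proteins, with IMCs of littermate mice. PARP1 WT cells carried PARP1 flox/flox alleles without Cre, and PARP1CKO cells carried the same alleles with lysozyme-Cre. PARP2 WT and PARP2CKO cells had the corresponding PARP2 flox/flox genotypes. Lysozyme-Cre is expressed from the lysozyme locus and acts in myeloid cells, so cells of other lineages in the culture keep the floxed gene. All groups were C57BL/6 mice 2 months of age, and bone marrow was cultured for 3 days in medium that held M-CSF at 40 ng per mL, the cytokine that drives macrophage differentiation. Each group has 2 libraries, described as biological duplicates, and the labels do not say whether each came from a separate mouse, so p-values measure the spread between these libraries. RNA came from whole cultures, in which fewer cells of a type and less RNA per cell cannot be told apart.

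Proteases released by myeloid cells are held in check by inhibitors of several unrelated folds. WAP-domain proteins are small secreted proteins with a core of disulfide bonds, and SLPI, the best studied of them, blocks neutrophil elastase and cathepsin G. Kunitz-domain proteins block trypsin-like serine proteases, and cystatins block the cysteine cathepsins of lysosomes. The set is wider than the word secreted: the products of Spint1 and Spint2 are anchored in the membrane, and the stefin encoded by Stfa1 stays inside the cell.

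Library totals lay between 37852450 and 61845125 counts. Parp1 had 202 and 211 CPM (counts scaled to library size with TMM factors) in PARP1 WT and 63.2 and 59.1 CPM in PARP1CKO (adjusted p = 0.0134, edgeR quasi-likelihood test). Parp2 had 48.2 and 48.3 CPM in the PARP2 WT libraries against 25.7 and 25.6 CPM in the PARP2CKO libraries (adjusted p = 0.000139, same test). PARP2 WT replicate 2 had 155 CPM of Parp1, against 251 CPM in PARP2 WT replicate 1 and 263 and 264 CPM in PARP2CKO. Markers of both neutrophils and macrophages were abundant, with summed levels of 2896 to 3657 CPM over 14 neutrophil genes and 4462 to 5769 CPM over 11 macrophage genes in a library.

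The 3 genes on which the choice rested are shown first by the sequence before their start, since the first 2 lie side by side in the genome and share sequence there. The RefSeq table (GRCm38.p6) holds a window from 250 bases before to 50 bases after the gene start for 8 of the 9 genes, Wfdc21 being the exception. The stretches printed here end at most 30 bases after the GENCODE start and lie on the plus strand: chr11:83703806-83704020 for Wfdc17, chr11:83708754-83709023 for Wfdc18 and chr2:119237110-119237379 for Spint1. Capitals mark the letters of a motif named below.
Wfdc17: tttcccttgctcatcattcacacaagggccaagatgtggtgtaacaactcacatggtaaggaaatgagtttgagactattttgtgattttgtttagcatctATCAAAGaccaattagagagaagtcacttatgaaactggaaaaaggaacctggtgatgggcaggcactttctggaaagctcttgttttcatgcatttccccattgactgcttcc
Wfdc18: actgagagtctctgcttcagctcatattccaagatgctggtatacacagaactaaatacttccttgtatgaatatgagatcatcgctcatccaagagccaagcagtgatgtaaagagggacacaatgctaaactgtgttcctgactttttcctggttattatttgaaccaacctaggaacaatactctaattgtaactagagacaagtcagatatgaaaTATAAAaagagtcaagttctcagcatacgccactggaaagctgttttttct
Spint1: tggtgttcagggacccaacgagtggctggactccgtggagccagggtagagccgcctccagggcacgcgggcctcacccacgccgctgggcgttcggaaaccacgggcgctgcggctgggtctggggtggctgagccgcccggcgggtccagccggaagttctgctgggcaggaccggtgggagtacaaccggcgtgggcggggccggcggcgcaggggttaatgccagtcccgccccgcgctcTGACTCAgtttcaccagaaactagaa

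The windows of Wfdc17 and Wfdc18 matched each other at 143 of 228 aligned positions (62.7%) in the best local alignment, which was the highest score among all pairs of the 8 windows. The next best score, Spint1 with Spint2, had 51.3% identity. The 6 motifs below were searched on both strands, after results of these data were known: TGANTCA for AP-1, CTTTGAT for TCF/LEF, GAGGAAGT for PU.1, TTGCNNAA for C/EBP, the interferon-stimulated element known as ISRE, and TATAAA for the TATA box. Wfdc18 held a TATAAA that begins 31 bases before the RefSeq start. Wfdc17 held the TCF/LEF letters on the minus strand, beginning 149 bases before the start, and a TATAAA that begins 3 bases before it, past the end of the printed stretch. The GENCODE start of Wfdc17 lies 65 bases upstream of the RefSeq start. Spint1 held TGACTCA beginning 6 bases before its start. Cst7 held the AP-1 and the C/EBP letters, overlapping each other, Slpi and Stfa1 each held the C/EBP letters, and none of the 6 motifs was found in the windows of Cst3 and Spint2. Among all 32851 windows of this length, 13.6% held the TATA letters, 10.8% those of C/EBP, 7.81% those of AP-1, 3.73% those of TCF/LEF, 3.44% the ISRE and 3.20% those of PU.1. These matches describe letters and show no binding.

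Levels per transcript length spanned a wide range. In RPKM (CPM divided by the length in kb of the longest principal transcript), Cst3 was the most abundant at 274.5 to 479 RPKM over the 8 libraries. Wfdc21 followed with a median of 30.3 RPKM, Wfdc17 with 29.3 RPKM and Cst7 with 17.8 RPKM, and the library ranges of Wfdc21 and Wfdc17, and of Wfdc17 and Cst7, overlapped. In PARP2 WT Wfdc17 lay above Wfdc21, at 71.9 and 127 RPKM against 35.1 and 35.2 RPKM. Slpi lay at 5.43 to 9.19 RPKM, below all of these and above the rest. Spint1 (median 1.50 RPKM), Spint2 (0.774 RPKM) and Wfdc18 (0.201 RPKM) were low, with overlapping ranges. Stfa1, at 0 to 2 counts a library, stayed under the limit of 3 counts that a count of 0 allows, and it did not pass the filter on low counts.

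**Figure D1:**
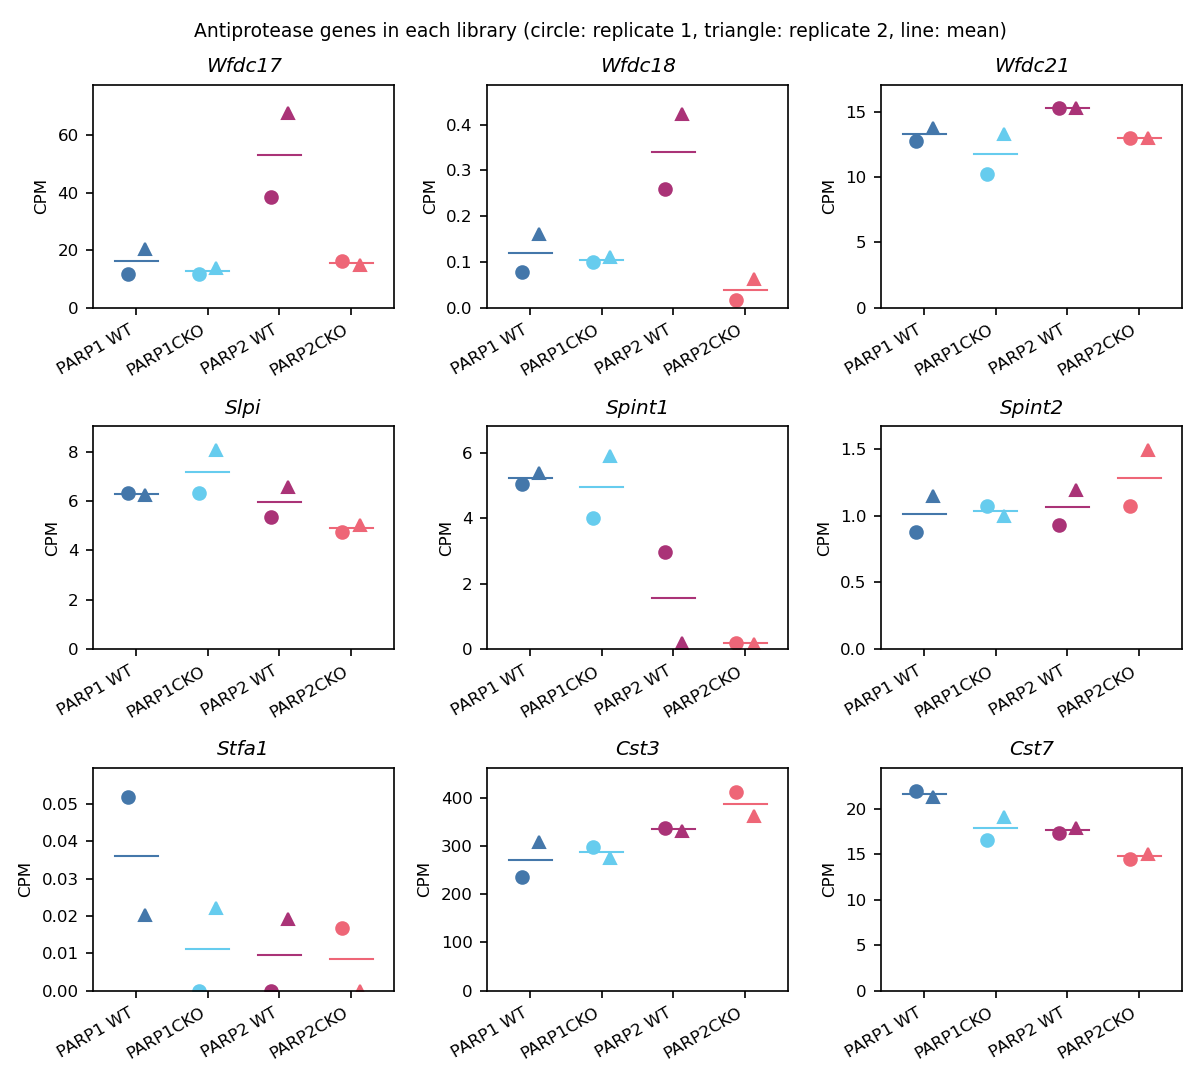
Level of each of the 9 genes in CPM (vertical axis, from 0) in the 4 groups (horizontal axis), with circles for replicate 1, triangles for replicate 2 and a line for the mean of both. Wfdc17 and Wfdc18 were highest in both PARP2 WT libraries, and Spint1 had 2.97 CPM in one PARP2 WT library and 0.173 CPM in the other.

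The PARP1 comparison did not enter the choice, and it was tested. None of the 8 antiprotease genes that passed the filter was called in PARP1CKO against PARP1 WT, where 0.106% of all 13197 genes tested were called (edgeR quasi-likelihood test, adjusted p under 0.05). Wfdc18, among these 8, passed through its PARP2 WT libraries and did not pass in the PARP1 libraries alone, so nothing is read from its result. One of the 8, Cst7, had an unadjusted p under 0.05, as had 11.3% of all genes tested, and DESeq2 and edgeR's likelihood-ratio test likewise called 0 with 1 under that unadjusted limit. With 2 libraries in each group, an exact permutation test of a single gene cannot go below p = 0.333. In order alone, both PARP1CKO libraries lay below both PARP1 WT libraries for Cst7 and above them for Slpi. Over all genes tested, 20.2% had both PARP1CKO libraries lower and 21.0% had both higher.

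**Figure D2:**
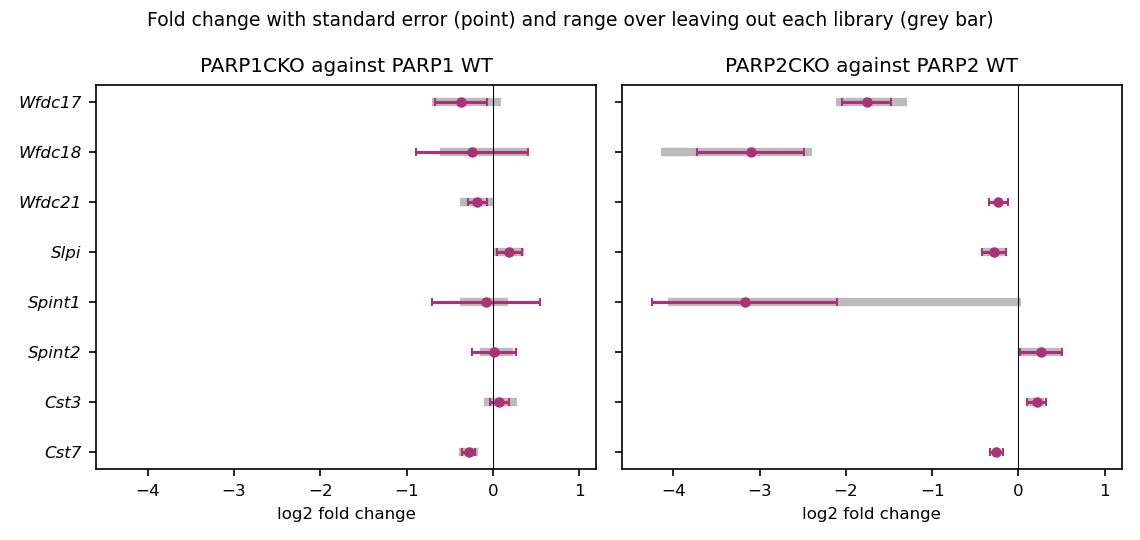
log2 fold change (horizontal axis) of the 8 genes that passed the filter, in PARP1CKO against PARP1 WT and in PARP2CKO against PARP2 WT. Points carry the standard error of the fit, and grey bars span the values obtained by leaving out each of the 8 libraries in turn. For PARP2, the bar of Spint1 runs from -4.06 to 0.02 and that of Wfdc17 from -2.11 to -1.29.

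Wfdc17, also known as a WAP protein of activated macrophages, is encoded on the plus strand of chromosome 11 at chr11:83703991-83706268 (GENCODE M21, mm10). It had 38.3 and 67.7 CPM in the PARP2 WT libraries and 16.4 and 14.9 CPM in the PARP2CKO libraries. Both PARP2CKO libraries thus lay below both PARP2 WT libraries, with a log2 fold change of -1.76 (SE 0.282). The PARP1 WT libraries had 11.8 and 20.5 CPM and the PARP1CKO libraries 11.6 and 13.7 CPM. The PARP2CKO level therefore lay inside the range of the PARP1 WT and PARP1CKO libraries. The 2 PARP2 WT libraries were the ones that stood apart, with a mean 3.29-fold that of PARP1 WT. These WT groups come from different floxed lines, and the part of the line in this ratio was not tested. PARP2 WT replicate 2 was 1.77-fold above replicate 1, and the PARP1 WT replicates differed by a similar 1.74-fold. In the PARP1 comparison the log2 fold change was -0.37 (SE 0.305, adjusted p = 0.670, edgeR quasi-likelihood test), and it became 0.09 without PARP1 WT replicate 2.

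Wfdc18 starts 5.024 kb after Wfdc17 on the same strand, at chr11:83709015-83711348. It had 15 and 22 counts in PARP2 WT and 1 and 3 counts in PARP2CKO. The PARP1 WT libraries had 3 and 8 counts, and both PARP1CKO libraries had 5. Wfdc18 passed the filter through its PARP2 WT libraries, the only ones above 8 counts. From the summed counts, PARP2 WT exceeded PARP2CKO 9.09-fold after scaling to library size (95% interval 3.27 to 35.1, which gives the counting error of this description and is no test), and the fitted log2 fold change was -3.10 (SE 0.620). It was -2.40 without PARP2CKO replicate 1 and -4.15 without PARP2CKO replicate 2. The same ratio of PARP1 WT over PARP1CKO was 1.19 (95% interval 0.459 to 3.13), with a log2 fold change of -0.24 (SE 0.652). In the PARP1 libraries alone Wfdc18 did not pass the filter, so no test of it is read in that comparison. Both PARP2CKO libraries also lay at or below 3 counts, which correspond to 0.0503 to 0.0775 CPM over the 8 libraries. No stretch of 75 bases, the read length, was shared between the principal transcripts of Wfdc17, Wfdc18 or Wfdc21 and the transcripts of any other gene.

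Wfdc21, a further small WAP gene, lies 42.949 kb beyond the Wfdc17 start at chr11:83746940-83752642. It had 15.2 and 15.3 CPM in PARP2 WT and 13.0 CPM in both PARP2CKO libraries. The groups did not overlap, but the log2 fold change of -0.23 (SE 0.108) was far smaller than those of its neighbors Wfdc17 and Wfdc18. The PARP1 WT libraries had 12.8 and 13.8 CPM and the PARP1CKO libraries 10.2 and 13.3 CPM, which overlap. The PARP1 log2 fold change was -0.18 (SE 0.113, adjusted p = 0.572, edgeR quasi-likelihood test).

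Slpi, the inhibitor of neutrophil elastase, is encoded on chromosome 2 at chr2:164354070-164389095. It had 5.36 and 6.57 CPM in the PARP2 WT libraries against 4.76 and 5.03 CPM in the PARP2CKO libraries. It had 6.31 and 6.25 CPM in the PARP1 WT libraries against 6.32 and 8.05 CPM in the PARP1CKO libraries. PARP1CKO replicate 1 lay only just above PARP1 WT. The order of the groups was opposite in the 2 comparisons, with a log2 fold change of -0.28 (SE 0.142) for PARP2 and 0.19 (SE 0.141, adjusted p = 0.629, edgeR quasi-likelihood test) for PARP1. Without PARP1CKO replicate 2 the PARP1 value was 0.01.

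Of the 8 genes that passed the filter, 5 had both PARP2CKO libraries below both PARP2 WT libraries (Wfdc17, Wfdc18, Wfdc21, Slpi and Cst7) and 1 had both above (Cst3). Over all genes tested these shares were 18.8% and 18.4%, and 0.0530% of genes were called in this comparison at an adjusted p under 0.05. Because 3 of the 9 genes were picked from this comparison, nothing is read from the count. Of the 14 neutrophil markers tested, 12 had a log2 fold change below 0 in the PARP2 comparison, against 50.7% of all genes tested. Their median was -0.20. Their summed level was 3438 to 3657 CPM in PARP2 WT and 2971 to 3376 CPM in PARP2CKO. Both PARP2CKO libraries were lower for 10 of the 14 and higher for 0, against the 18.8% and 18.4% of all genes tested. By edgeR's quasi-likelihood test 4 of the 14 had an unadjusted p under 0.05, against 4.83% of all genes tested. No neutrophil marker was called, and the part of the neutrophil markers in the values of Wfdc21, Slpi and Cst7 was not tested. None of the 14 was at 0 in all libraries. Over the PARP1 comparison the same 14 markers had a median log2 fold change of -0.01. Macrophage markers, with which Wfdc17 is associated, summed to 5165 to 5535 CPM in PARP2 WT and 5507 to 5769 CPM in PARP2CKO, and their median log2 fold change was 0.08.

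The genes beside the WAP cluster were examined because 3 of the 9 genes share this stretch of chromosome 11. A further 7 genes of the table start or end within 150 kb of it, 6 of them passed the filter, and their tests in both comparisons are given. The stretch was reached through genes picked on the PARP2 comparison and with results of these libraries known, so the tests of these neighbors in it are not independent evidence. Among them were 4 that encode chemokines, which attract leukocytes: Ccl3, Ccl4, Ccl6 and Ccl9. Ccl3, 54.6 kb before the Wfdc17 start, had 105 and 146 CPM in the PARP2 WT libraries against 62.5 and 64.0 CPM in the PARP2CKO libraries. It fell by 0.99 on the log2 scale (SE 0.123, adjusted p = 0.0465, edgeR quasi-likelihood test). Ccl9 had 392 and 554 CPM in the PARP2 WT libraries against 234 and 236 CPM in the PARP2CKO libraries and fell by 1.01 (SE 0.127, adjusted p = 0.0465, same test). These were the 2 neighbors called. Both calls were lost without either PARP1 WT library or either PARP2CKO library, and both were kept without either PARP1CKO library or either PARP2 WT library. They were also lost with a minimum of 1 CPM in 2 libraries, with only the 4 libraries of the comparison and with a replicate block.

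Ccl6 had 54.1 and 104 CPM in the PARP2 WT libraries against 22.5 and 20.5 CPM in the PARP2CKO libraries, a log2 fold change of -1.88 (SE 0.273, adjusted p = 0.116, edgeR quasi-likelihood test). Ccl4 had 47.1 and 80.0 CPM in the PARP2 WT libraries against 26.5 and 34.9 CPM in the PARP2CKO libraries, a log2 fold change of -1.05 (SE 0.217, adjusted p = 0.485, same test). Ccl6 was called with DESeq2 (adjusted p = 0.000365), with the likelihood-ratio test, without a filter on low counts and without either PARP2 WT library. Ccl4 was called with the likelihood-ratio test (adjusted p = 0.000845), without a filter and without PARP2 WT replicate 1. The groups did not overlap for any of the 4 chemokine genes. On the other side of the cluster Heatr6, a HEAT-repeat gene 49.7 kb beyond the Wfdc17 start, had a log2 fold change of -0.05 (SE 0.0555, adjusted p = 0.968, same test), and the low transcript E230016K23Rik, which overlaps Ccl6 on the opposite strand, had -0.54 (SE 0.434, adjusted p = 0.956, same test). In the PARP1 comparison 0 of the 6 were called, with log2 fold changes between -0.28 and 0.14.

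Which group stood apart differed between Wfdc17 and the chemokine genes. For Ccl9, PARP2CKO lay at 234 and 236 CPM, below all 4 PARP1 WT and PARP1CKO libraries, which lay between 482 and 531 CPM. The PARP2 WT libraries lay on either side of this range, replicate 1 below it at 392 CPM and replicate 2 above it at 554 CPM. PARP2 WT replicate 1 was also below the PARP1 WT and PARP1CKO libraries for Ccl3, Ccl4 and Ccl6. The mean of PARP2 WT over that of PARP1 WT was 0.892 for Ccl9, 0.937 for Ccl3, 0.897 for Ccl4 and 0.790 for Ccl6, against 3.29 for Wfdc17 and 2.86 for Wfdc18. The mean of PARP2CKO over that of PARP1 WT was 0.443, 0.473, 0.433 and 0.215 for the same 4 chemokine genes, 0.968 for Wfdc17 and 0.330 for Wfdc18. The chemokine genes were thus lowest in PARP2CKO, and Wfdc17 was high in PARP2 WT. For Wfdc18 the ratio to PARP1 WT rests on 1 and 3 counts in PARP2CKO and 3 and 8 in PARP1 WT, too few to place PARP2CKO. Wfdc21 had ratios of 1.15 and 0.979. Its PARP2 WT libraries, at 15.2 and 15.3 CPM, also lay above all other libraries, which reached at most 13.8 CPM. They stood apart by less than for Wfdc17. These ratios are descriptions without a test, and both sets share the PARP2 libraries. They also set the PARP2 floxed line against the PARP1 floxed line. A difference between the lines therefore cannot be told apart from one particular to a PARP2 group. PARP2 WT replicate 2 exceeded replicate 1 for each of these 6 genes, by 1.40-fold (Ccl3) to 1.92-fold (Ccl6).

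**Figure D3:**
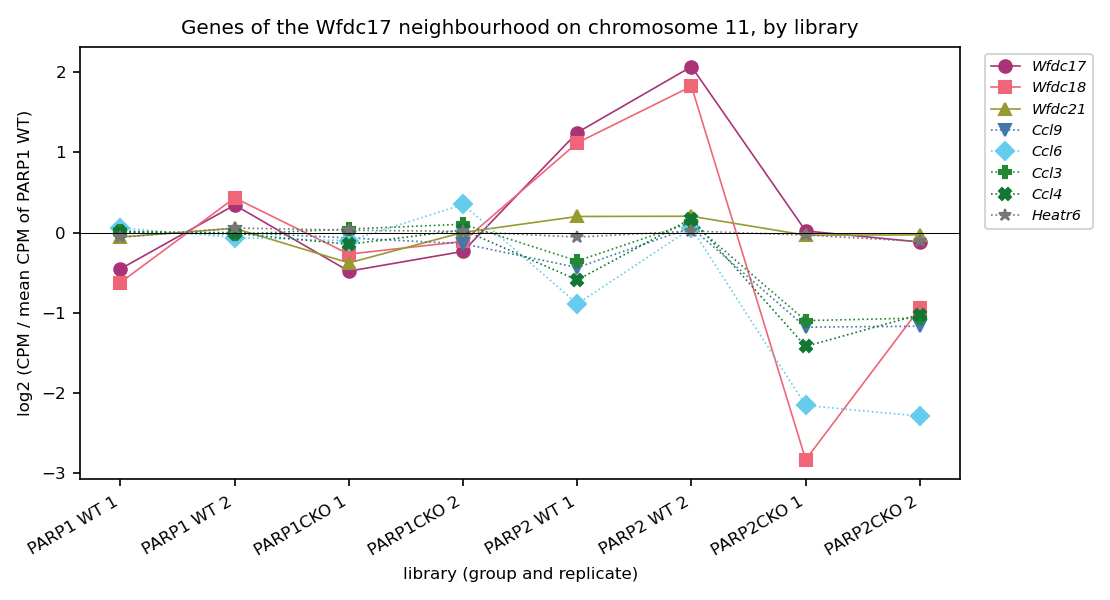
Level of 8 genes of the chromosome 11 stretch in each library, as log2 of the CPM over the mean CPM of PARP1 WT (vertical axis), with solid lines for WAP genes and dotted lines for other genes. The lines only join the points of a gene. Wfdc17 and Wfdc18 rise above 1 in both PARP2 WT libraries, and the 4 chemokine genes lie near -1 or lower in both PARP2CKO libraries.

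**Figure D4:**
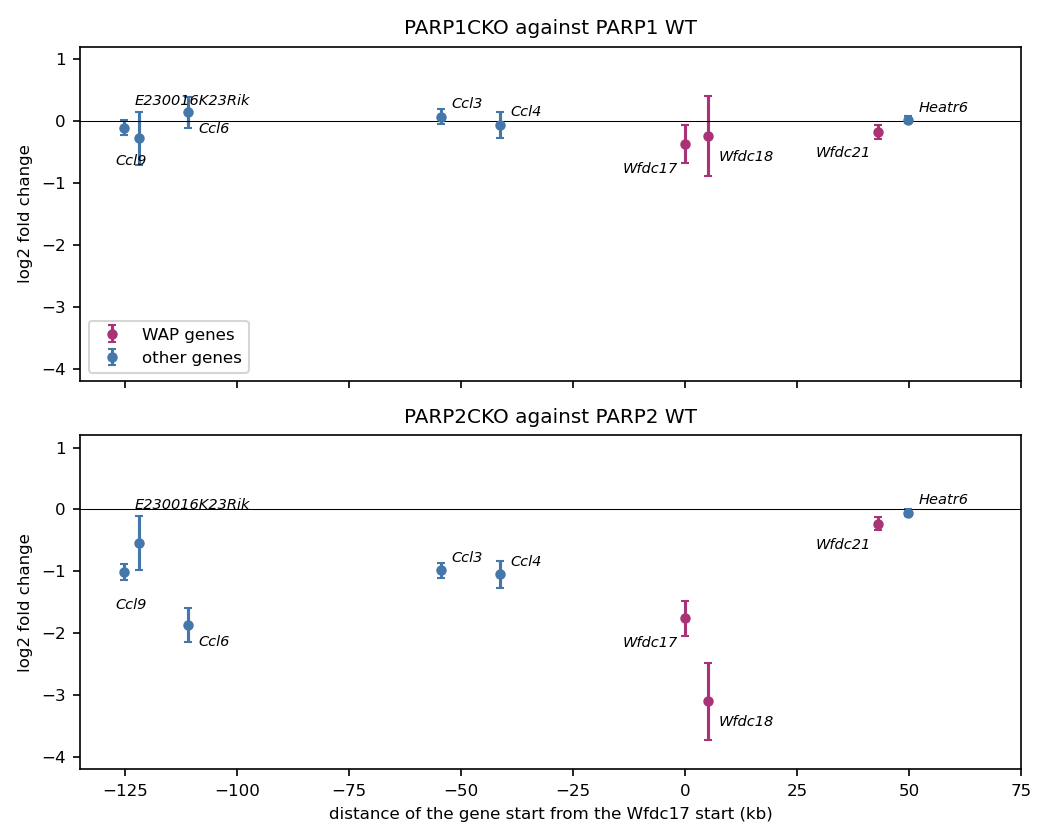
log2 fold change with its standard error (vertical axis) against the distance of the gene start from the Wfdc17 start in kb (horizontal axis), for PARP1CKO against PARP1 WT (upper) and PARP2CKO against PARP2 WT (lower). In the PARP2 comparison Wfdc17 and Wfdc18 lie at -1.76 and -3.10, and Heatr6, 49.7 kb away, lies at -0.05.

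The genes most like Wfdc17 across the 8 libraries were taken as those with the smallest root mean square difference of centered log2 CPM among all genes tested. They were Kcnj10, a potassium channel gene (0.377), Lyz2, the macrophage lysozyme gene (0.458), and Hey1, a transcription factor gene (0.473). Wfdc17 itself deviated from its own mean by 0.846 on this scale. Kcnj10 and Hey1 were low, at 0.373 to 1.63 CPM and 0.0517 to 0.365 CPM over the 8 libraries. In PARP1 WT replicate 1, Hey1 lay under the 0.0775 CPM that 3 counts make there. The part of low counts in these matches was not tested. Lyz2 is the gene whose locus carries the lysozyme-Cre insertion. It had 9723 and 10803 CPM in the PARP2 WT libraries against 6741 and 5746 CPM in the PARP2CKO libraries. It had 5711 and 6386 CPM in the PARP1 WT libraries against 3494 and 4334 CPM in the PARP1CKO libraries. The CKO libraries were thus lower than their WT libraries in both comparisons for Lyz2, while for Wfdc17 the PARP1 groups overlapped. For Wfdc18 the nearest were Gm4349 (0.528), Wfdc17 (0.536) and Gm10825 (0.595), so its neighbor stood second among all genes tested. Both genes were picked on the PARP2 libraries that enter this measure, so their likeness is in large part fixed by the choice. Wfdc18 had only 1 to 22 counts in a library, and the part of low counts in its differences was not tested.

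Spint1 encodes HAI-1, a membrane-anchored inhibitor of matriptase and of the hepatocyte growth factor activator, and it lies at chr2:119237362-119249527. It had 172 counts in PARP2 WT replicate 1 and 9 in PARP2 WT replicate 2, and 11 and 8 counts in PARP2CKO. In CPM these were 2.97, 0.173, 0.184 and 0.166, so that PARP2 WT replicate 2 lay between the PARP2CKO libraries and the groups overlapped. PARP2 WT replicate 1 was 17.2-fold above replicate 2. The log2 fold change of -3.17 (SE 1.08) became 0.02 without PARP2 WT replicate 1, so this library alone carried the value. In the 4 libraries of the PARP2 comparison alone Spint1 did not pass the filter on low counts, and it passed over all 8 through the PARP1 WT and PARP1CKO libraries. The PARP1 WT libraries had 5.04 and 5.38 CPM and the PARP1CKO libraries 4.00 and 5.91 CPM. The PARP1 log2 fold change was -0.08 (SE 0.622, adjusted p = 0.973, edgeR quasi-likelihood test), and its sign changed without PARP1CKO replicate 1.

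The genes most like Spint1 were Hdc, which encodes histidine decarboxylase of basophils and mast cells (0.627), Kcnip3, a calcium-binding protein gene (1.06), and Ell3, an elongation factor gene (1.08), against a deviation of Spint1 itself of 2.16. Hdc had 5.53 CPM in PARP2 WT replicate 1 and 0.980 CPM in replicate 2, 0.805 and 0.870 CPM in PARP2CKO, and 7.99 to 11.1 CPM in the PARP1 WT and PARP1CKO libraries. Hdc was thus also low in PARP2 WT replicate 2 and both PARP2CKO libraries, with a smaller drop than Spint1, and Ell3 and Kcnip3 lay at 0 to 0.101 CPM in the same libraries, values near the level of 3 counts. Kcnip3 had 0.121 CPM in PARP1 WT replicate 2 and 0.156 CPM in PARP2 WT replicate 1, against 0 to 0.0207 CPM in those libraries. All 3 lie on chromosome 2, as Spint1 does: Ell3 starts at position 121439010, Hdc at 126593667 and Kcnip3 at 127456498. Other basophil and mast cell markers did not separate the 2 PARP2 WT libraries. Without Hdc, the 10 markers of that list summed to 11.6 CPM in PARP2 WT replicate 1 and 13.0 CPM in replicate 2, to 8.38 and 10.8 CPM in PARP2CKO and to 15.3 to 21.7 CPM in the PARP1 WT and PARP1CKO libraries. The list as a whole, Hdc included, had 8 of 8 tested genes below 0 in the PARP2 comparison, against 50.7% of all genes tested. None was called, and none of its 11 genes was at 0 in all libraries. Epithelial markers, since Spint1 is typical of epithelium, summed to 1.12 to 1.88 CPM over 10 genes, with Krt19 and Cldn4 at 0 in all libraries. B cell markers summed to 30.3 to 44.5 CPM in the PARP1 WT and PARP1CKO libraries and to 8.31 to 11.6 CPM in the PARP2 WT and PARP2CKO libraries, so both PARP2 WT libraries were low. The part of basophils and B cells in the level of Spint1 was not tested.

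**Figure D5:**
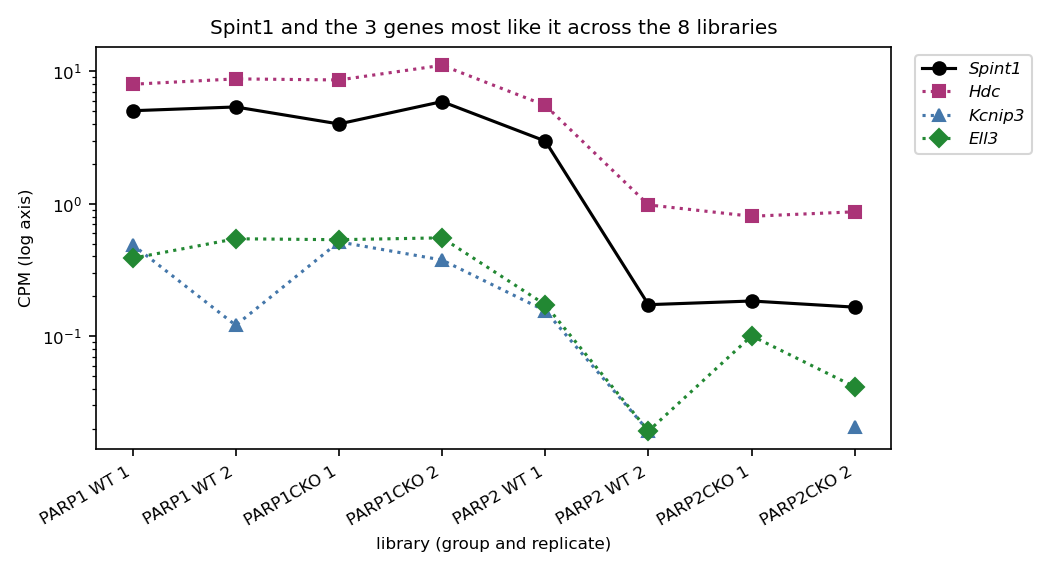
CPM on a log axis (vertical) of Spint1 and of Hdc, Kcnip3 and Ell3 in each library (horizontal). Lines join the points of a gene, and the count of 0 for Kcnip3 in PARP2CKO replicate 1 is not drawn. All 4 genes were lower in PARP2 WT replicate 2 than in PARP2 WT replicate 1.

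Spint2, which encodes the related membrane-anchored inhibitor HAI-2, lies at chr7:29256323-29281912 on the minus strand. It had 0.934 and 1.19 CPM in the PARP2 WT libraries against 1.07 and 1.49 CPM in the PARP2CKO libraries, which overlap (log2 fold change 0.26, SE 0.241). The PARP1 WT libraries had 0.879 and 1.15 CPM and the PARP1CKO libraries 1.07 and 0.995 CPM (log2 fold change 0.02, SE 0.258, adjusted p = 0.985, edgeR quasi-likelihood test). In PARP2 WT replicate 2, where Spint1 stood at 0.173 CPM, Spint2 stood at 1.19 CPM and was thus not low.

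Among the cystatin-family genes, Cst3 encodes cystatin C, the main secreted inhibitor of cysteine cathepsins, at chr2:148871722-148875692. It had 337 and 332 CPM in the PARP2 WT libraries against 412 and 361 CPM in the PARP2CKO libraries, without overlap (log2 fold change 0.21, SE 0.111). In PARP1 WT it had 236 and 308 CPM and in PARP1CKO 298 and 275 CPM (log2 fold change 0.08, SE 0.111, adjusted p = 0.824, edgeR quasi-likelihood test). The PARP1 WT replicates of Cst3 differed 1.30-fold, more than any mean difference between WT and CKO for this gene.

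Cst7 encodes cystatin F, which is made by immune cells and acts on cathepsins inside granules and lysosomes, at chr2:150570415-150578944. It had 17.3 and 17.9 CPM in the PARP2 WT libraries against 14.4 and 15.1 CPM in the PARP2CKO libraries (log2 fold change -0.26, SE 0.0764). It had 21.9 and 21.3 CPM in the PARP1 WT libraries against 16.5 and 19.1 CPM in the PARP1CKO libraries. The PARP1 log2 fold change was -0.28 (SE 0.0761, unadjusted p = 0.00535, adjusted p = 0.279, edgeR quasi-likelihood test), so Cst7 did not pass the test although the groups did not overlap. Leaving out single libraries kept this value between -0.39 and -0.18. Stfa1, a stefin, had 2 and 1 counts in PARP1 WT, 0 and 1 in PARP1CKO, and at most 1 count in each library of the PARP2 comparison, and no fold is given. Of its 75-base stretches 10.7% are shared with BC100530.

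Other inhibitors and the proteases on which these families act were described by 5 lists of 156 genes, of which 51 passed the filter. None of the 51 was called in either comparison by edgeR's quasi-likelihood test, with 4 and 7 of them at an unadjusted p under 0.05 in the PARP1 and the PARP2 comparison. Over all genes tested, 11.3% and 4.83% were under that limit, and 47.9% and 50.7% had a log2 fold change below 0. The median log2 fold change over all genes tested was 0.01 for PARP1 and -0.00140 for PARP2.

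The list of cathepsins and legumain, most of them cysteine proteases that cystatins bind, had 11 of 11 tested members above 0 in the PARP2 comparison, with a median log2 fold change of 0.16. One member, Ctsa, is a serine carboxypeptidase and no target of cystatins, and it had 0.06. Both PARP2CKO libraries were higher for 5 of the 11, against the 18.4% of all genes tested, and 5 had an unadjusted p under 0.05, against 4.83%. The list was chosen with results known, and nothing particular to it is read from these counts. The 3 most abundant were Ctsb, Ctss and Ctsz. Ctsb, a lysosomal cysteine protease, had 14991 and 14449 CPM in the PARP2 WT libraries against 16830 and 16019 CPM in the PARP2CKO libraries (log2 fold change 0.16, SE 0.0605, adjusted p = 0.954, edgeR quasi-likelihood test). Ctss, which processes antigens in macrophages, had 1925 and 1902 CPM in the PARP2 WT libraries against 2374 and 2184 CPM in the PARP2CKO libraries (log2 fold change 0.25, SE 0.0686, adjusted p = 0.801, same test), and DESeq2 called it at an adjusted p of 0.0403. Ctsz, a carboxypeptidase, had a log2 fold change of 0.04. In the PARP1 comparison 7 of the 11 lay above 0, with a median of 0.07. Both PARP1CKO libraries were higher for 5 of the 11 and lower for 1, against 21.0% and 20.2% of all genes tested. One of the 11 had an unadjusted p under 0.05, against 11.3%. Ctsb had 13400 and 13961 CPM in PARP1 WT against 15370 and 14344 CPM in PARP1CKO (log2 fold change 0.12). A higher order for 5 of the 11 was thus found in both comparisons.

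Among granule serine proteases, which include the SLPI targets Elane and Ctsg, 5 of 7 tested members lay below 0 in the PARP2 comparison (median -0.13). Elane, neutrophil elastase, had 62.8 and 61.1 CPM in the PARP2 WT libraries against 53.7 and 59.8 CPM in the PARP2CKO libraries (log2 fold change -0.13, SE 0.0758). Prtn3, proteinase 3, had -0.05, and Ctsg, cathepsin G, had -0.16. In the PARP1 comparison the median of this list was -0.01.

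Of membrane and activating serine proteases, which include the HAI-1 target matriptase, 5 of 22 passed the filter. Plau, the urokinase gene, had 688 and 661 CPM in the PARP2 WT libraries against 759 and 770 CPM in the PARP2CKO libraries (log2 fold change 0.18, SE 0.129). F7 and F10, genes of coagulation factors, had 0.44 and -0.06. St14, which encodes matriptase, the protease that HAI-1 binds, had 14.9 and 14.3 CPM in the PARP2 WT libraries against 15.7 and 12.4 CPM in the PARP2CKO libraries, and thus showed no counterpart of the 17.2-fold gap of Spint1 within PARP2 WT. The median of the list was 0.22 for PARP1 and -0.05 for PARP2.

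Serpins and macroglobulins, another class of inhibitors, had 19 of 52 genes tested. Of these 19, 16 lay below 0 in the PARP1 comparison (median -0.23) and 6 in the PARP2 comparison (median 0.09). Over all genes tested, 47.9% and 50.7% lay below 0. Both PARP1CKO libraries were lower for 9 of the 19 and higher for 2, against 20.2% and 21.0% of all genes tested. An unadjusted p under 0.05 was found for 2 of the 19 in the PARP1 comparison (edgeR quasi-likelihood test), against 11.3%. The 3 most abundant were Serpinb6a, Serpinb9 and Serpinb1a, intracellular inhibitors of serine proteases. Serpinb1a, an inhibitor of neutrophil serine proteases, had 31.9 and 32.4 CPM in the PARP1 WT libraries against 23.5 and 26.7 CPM in the PARP1CKO libraries (log2 fold change -0.36, SE 0.0649, adjusted p = 0.128, edgeR quasi-likelihood test). DESeq2 called it at an adjusted p of 0.0208 and the likelihood-ratio test at 0.00136. Serpinb6a and Serpinb9 had PARP1 log2 fold changes of -0.10 and -0.14. Of the remaining WAP, Kunitz and cystatin genes, 25 of 46 were at 0 throughout, and 9 passed the filter. App and Aplp2, which carry Kunitz domains in some isoforms, and Cstb, the intracellular stefin B, were the most abundant, with PARP2 log2 fold changes of 0.05, 0.03 and 0.07, and the median of the list was 0.04 for PARP2 and -0.01 for PARP1.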

How the data were processed

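RNA-seq libraries of IMCs were made with a stranded total RNA kit from 4 µg of RNA, and 8 libraries in 4 groups were used. The authors deposited raw counts per gene, made from single-end reads of 75 bases mapped to mm10 with TopHat2 2.0.12 and counted with featureCounts, with FastQC 0.11.2 and Picard 1.127 among the tools of the submitters' processing notes. The annotation and the strand setting of the counting are not given in the sources used here.

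Counts were analysed in R 4.3.3 with edgeR 4.0.16 (TMM, filterByExpr, quasi-likelihood test with a mean for each group over all 8 libraries, Benjamini-Hochberg adjustment over 13197 genes, threshold 0.05). The standard error is that implied by the fold change and its F statistic. DESeq2 1.42.0, the likelihood-ratio test, other scalings and filters, the 4 libraries of a comparison alone, a replicate block and leaving out each library were alternatives. CPM used TMM library sizes, and log2 CPM a prior count of 2. Positions and transcript lengths came from GENCODE M21 for 22750 symbols of the table, promoter windows from RefSeq (GRCm38.p6). Motif letters were matched exactly. Figures were drawn with matplotlib 3.10.9. The PARP1 test was run on counts simulated from the model that edgeR assumes, and recovery of the largest planted changes was required. That check set no requirement for smaller changes or for false calls.

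The genes and the lists were chosen with earlier results of these data known. Genes named are the 9 antiprotease genes, Parp1 and Parp2, the neighbors within 150 kb, the 3 most abundant genes of each list and the 3 genes most like Wfdc17, Wfdc18 and Spint1. Others, such as St14, BC100530 and the markers, were named after their values were seen. Replicates differed by more than sampling noise (chi-square per gene 8.70 to 13.1). Intervals and floors cover counting error only.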

Additional observations from a re-analysis of the deposited data

Results flagged for a closer look

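Slpi had both PARP1CKO libraries above both PARP1 WT libraries, with a log2 fold change of 0.19, and both PARP2CKO libraries below both PARP2 WT libraries, with -0.28. The order of the groups was thus opposite in the 2 comparisons, but PARP1CKO replicate 1, at 6.32 CPM, lay only just above PARP1 WT, at 6.31 and 6.25 CPM. The difference between the effects was not tested, because the genes were chosen on the PARP2 comparison. Without PARP1CKO replicate 2 the PARP1 value was 0.01, and leaving out single libraries kept the PARP2 value between -0.43 and -0.13.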

How the results depend on the processing

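In the PARP1 comparison 14 genes were called, against 101 without a filter on low counts, 86 with DESeq2, 146 with the likelihood-ratio test, and 1 (without PARP1 WT replicate 2) to 34 (without PARP1CKO replicate 1) on leaving out a library. In the PARP2 comparison 7 were called, against 26, 27 and 39 under the same 3 changes and 4 to 19 on leaving out a library, the lowest without either PARP1 WT library and the highest without PARP2 WT replicate 1. The antiprotease genes called in the PARP1 comparison numbered 0 under all alternatives run. Among the related lists 1 gene, Serpinb1a, was called for PARP1 without a filter, with DESeq2 and with the likelihood-ratio test, and 1, Ctss, for PARP2 with DESeq2, against 0. The 2 neighbors called in the PARP2 comparison became 4 without a filter and with the likelihood-ratio test, 0 with at least 1 CPM in 2 libraries and with only the 4 libraries of the comparison, and 0 to 4 on leaving out a library. The cause of these shifts was not tested.

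The labels do not say whether same-numbered libraries belong together. Their deviations from the group means correlated at -0.133 in the PARP1 and 0.147 in the PARP2 comparison. With 2 libraries in each group, these values cannot show whether the libraries were paired. With a replicate block, 14 genes were called for PARP1 and 6 for PARP2, and 0 neighbors. With the numbers of PARP1CKO crossed, an alternative added after seeing the data, 18 genes were called for PARP1.

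On leaving out a library, PARP1 log2 fold changes changed sign for Wfdc17 (-0.70 to 0.0943), Wfdc18 (-0.62 to 0.42), Wfdc21 (-0.38 to 0.0001), Spint1 (-0.38 to 0.18), Spint2 (-0.15 to 0.23) and Cst3 (-0.10 to 0.28). For PARP2, Spint1 ran from -4.06 to 0.02. Depth limits Wfdc18 and Stfa1, at or near 3 counts in some or all libraries. Filters removed Wfdc18 with at least 1 CPM in 2 libraries and in the 4 PARP1 libraries alone, and Spint1 in the 4 PARP2 libraries alone, so no value exists there.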

Other observations

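Position was counted for the 10 genes most like Spint1 after the first 3 had been seen to lie on its chromosome. Of these 10, 4 lay on chromosome 2 and 3 within 10 Mb of Spint1, while 7.89% of the genes tested with a position lay on chromosome 2 and 1.18% within 10 Mb. These counts are descriptions without a test.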
